A study of Mus with 5 samples.

Results

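The 10 genes Cblb, Itch, Rc3h1, Zc3h12a, Dgka, Dgkz, Ptpn2, Ptpn22, Rasa2 and Ubash3a encode brakes on T cell activation, and their chromatin was examined for binding of the retinoic acid receptor RARα and of the AP-1 family factor BATF. A peak, a place where immunoprecipitated DNA fragments pile up, was taken as a member when the gene column of the authors' annotation held one of the 10 symbols. This gave 71 of the 27480 peaks in 4 lists, 38 of 15812 in the BATF control list, 27 of 9899 in the BATF list with retinoic acid (RA), 5 of 1172 in the RARα control list and 1 of 597 in the RARα list with RA. All 10 genes were found in the gene table, and all 10 had at least 1 peak.

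A T cell whose receptor has been engaged is held back at several levels. Ubiquitin ligases tag signalling proteins for removal, RNA-binding repressors destroy messages of activation genes, diacylglycerol kinases consume a second messenger needed to switch on Ras, phosphatases and a GTPase-activating protein reverse kinase and Ras signalling, and loss of several of these proteins makes T cells respond more strongly or breaks tolerance. RARα is a nuclear receptor that binds DNA with and without its ligand RA, and BATF pairs with JUN proteins to drive effector gene expression in CD8 T cells.

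Naive CD8 T cells from the spleen of wild-type mice were activated for 24 h with antibodies to CD3 and CD28 plus IL-2, rested for 24 h in IL-2 at 100 U/ml, and then cultured for a further 1 h, either with no RA added (control) or with RA at 50 nM, before chromatin immunoprecipitation and sequencing (ChIP-seq). The interleukin in the labels' treatment fields changes from sample to sample, and IL-2 is given here after the methods. Antibodies to RARα and BATF gave 4 groups, and 1 library from normal rabbit IgG, for which the labels do not say whether the cells received RA, was the background for all 4. The authors called each list with MACS 2.2.7.1 on the mm10 genome from 2 pooled ChIP alignment files, and it is not stated whether these are separate cultures. The pools held 22655611 (RARα control), 22475060 (RARα with RA), 23110180 (BATF control) and 16424269 fragments (BATF with RA), against 11410673 for IgG, and the p cutoff was 0.001 for RARα and 1e-05 for BATF. With 1 list per condition there was no spread between replicates and no test between conditions was possible. Intervals below are 95% intervals, and those of ratios and pileups cover counting error of fragments only. Those of shares treat peaks or sites as independent draws, although several belong to the same gene. Pileup is the number of fragments at the peak's summit, and fold enrichment is its ratio to the local IgG level, with 1 added to both. Pileup compared between conditions was first scaled to 1000000 fragments per pool and is called scaled pileup.

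Every one of the 10 genes carried BATF in both conditions, while RARα was called at 3 of them without RA and at 1 with it. In the BATF control list 10 of 10 genes had a peak, against 49.2% of the 21631 protein-coding genes, and with RA it was again 10 of 10, against 38.7%. All 10 thus had BATF in both lists, as did 76.5% of the genes with a BATF control peak. Each of the 10 genes also had at least 1 BATF peak classed as promoter in both lists, against 27.5% of all genes (38.3% in the control list and 28.1% with RA). The genes are long, with a median of 57.4 kb against 17.3 kb for all protein-coding genes and 21.8 kb for those with a BATF control peak, and the part of length in the count was not tested. RARα control peaks were assigned to 3 of the 10 genes (Cblb, Itch and Ptpn2), against 7.27% of all genes, and all 3 had a BATF control peak, as did 82.4% of the genes with a RARα control peak. With RA a RARα peak was assigned to Itch alone of the 10, against 3.23% of all genes.

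**Figure D1:**
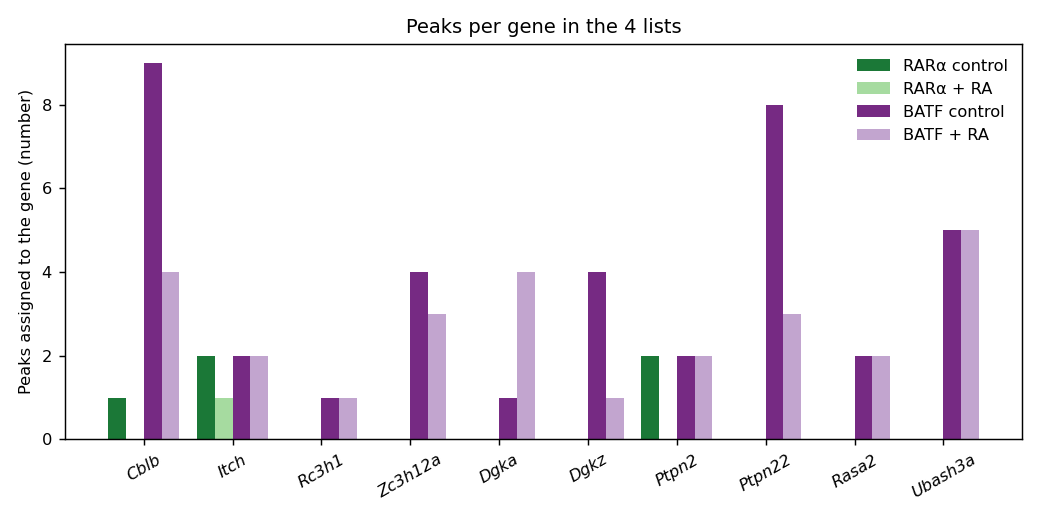
Number of peaks assigned to each gene (vertical axis) in the 4 lists, 1 bar per gene and list. BATF counts fell from 9 to 4 at Cblb and from 8 to 3 at Ptpn22. They rose from 1 to 4 at Dgka, where the RA peaks lay at positions covered by the control peak. RARα bars are present at Cblb, Itch and Ptpn2 only.

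Most BATF peaks assigned to the 10 genes overlapped the gene body. In the control list 36 of 38 overlapped the gene and all 38 lay within 10 kb, and with RA 22 of 27 overlapped the gene and 26 lay within 10 kb. Peaks were taken by assigned gene, and no share over the lists was set beside these counts, so they are not read as a trait of the genes. Counted within 100 kb whatever gene they were assigned to, there were 74 control peaks and 55 with RA. By the authors' class, 18 control peaks were promoter, 19 intron and 1 intergenic, and with RA 17 were promoter, 8 intron and 2 intergenic. Introns held 50.0% of the members' control peaks and 20.1% of the whole control list, and 29.6% against 17.0% with RA. Promoters held 47.4% of the members' control peaks and 58.7% of the whole control list, and 63.0% against 64.6% with RA. Of the 19 control intron peaks, 7 were at Cblb and 6 at Ptpn22. The part of the genes' length in these shares was not tested. The intron peaks were at the same 6 of the 10 genes in each list (Cblb, Zc3h12a, Ptpn2, Ptpn22, Rasa2 and Ubash3a), against 6.85% of all genes in the control, 4.84% with RA and 4.27% in both. Enrichment at the genes was like that of the lists, with a median fold of 5.71 against 5.40 in the control and 5.79 against 5.29 with RA. A fold of at least 10 was reached by 3 of the 38 control peaks, against 10.9% of the list. These 3 were in intron 2 of Ptpn2, intron 3 of Cblb and at the Zc3h12a promoter.

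**Figure D2:**
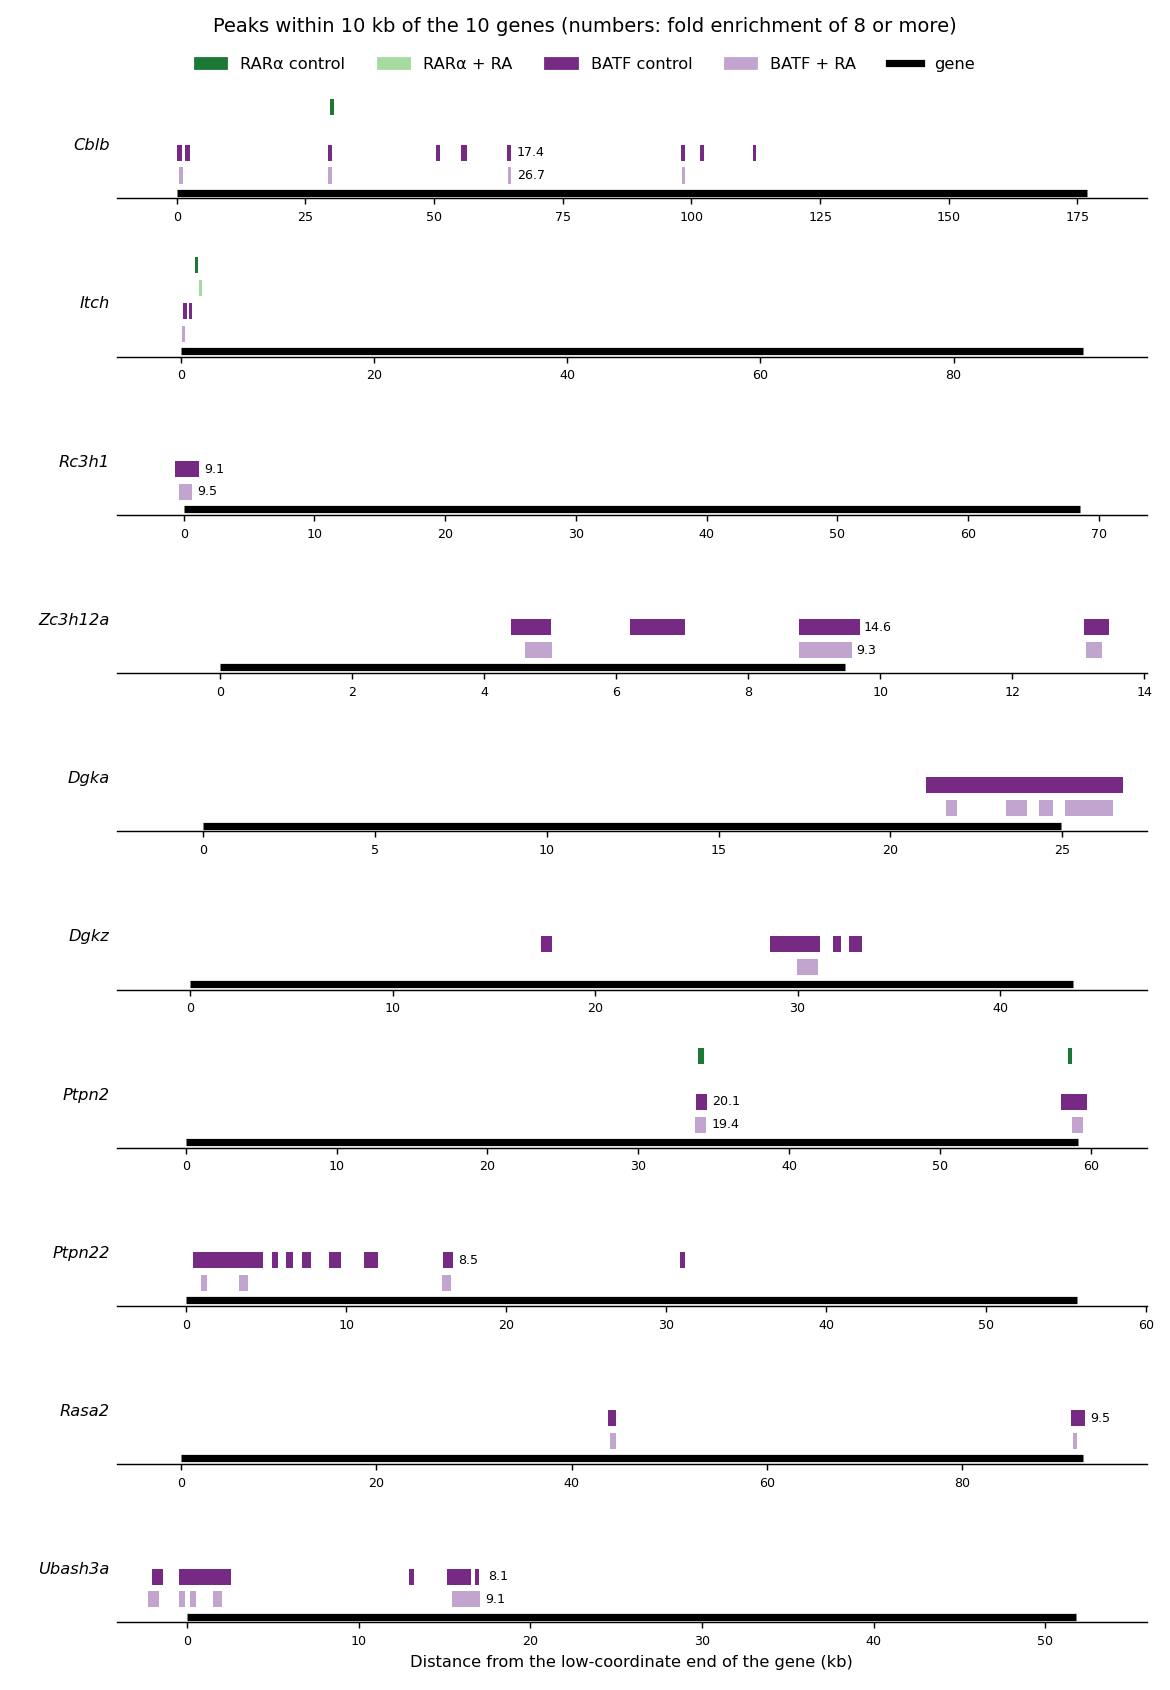
Map of the peaks within 10 kb of each gene, drawn to scale per gene, with distance from the gene's low-coordinate end in kb on the horizontal axis, the gene as a black bar and 1 row of boxes per list. Peaks of fold 8 or more carry their fold, which was 17.4 and 26.7 at the Cblb intron site and 20.1 and 19.4 at the Ptpn2 intron site in the control and RA lists. Very short peaks are drawn at a minimum width.

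Among the ubiquitin ligases, Cblb, whose protein Cbl-b raises the threshold for activation without CD28 help, had the most BATF control peaks of the 10 genes. It had 9 peaks in the control over its 177 kb on chromosome 16, a number reached or passed by 190 genes (0.878%), and 4 with RA, where Ubash3a had more with 5. The strongest site lay in intron 3, at chr16:52095306-52096159, 64.5 kb from the low-coordinate end of the gene. Its pileup was 73 fragments in the control and 85 with RA, which was a scaled pileup of 3.16 and 5.18, and its fold was 17.4 and 26.7. With RA it ranked 73rd of the 9899 BATF peaks by fold, and in the control 389th of 15812. The ratio of scaled pileup, RA over control, was 1.64 (1.18 to 2.27). This was the only site of the 10 genes whose interval lay above 1.

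The other 3 Cblb sites found in both lists had lower scaled pileup with RA, although each interval of the ratio held 1. The promoter site at chr16:52031233-52032231 had 42 and 21 fragments and a ratio of 0.704 (0.396 to 1.22). A site in intron 3 (chr16:52060698-52061311) had 24 and 15 fragments and a ratio of 0.879 (0.429 to 1.75). A site in intron 4 (chr16:52129192-52129942) had 53 and 24 fragments and a ratio of 0.637 (0.376 to 1.05). The strongest site alone had a ratio above 1, its interval overlapped those of the promoter and the other intron 3 site, and differences between sites were not tested.

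Itch, a ligase of the NEDD4 family, had 2 BATF peaks in each list, and they were not the same pair. The promoter site (chr2:155133584-155133989), beside the low-coordinate end of the 93.4 kb gene, was in both lists with 15 and 17 fragments, fold 4.09 and 5.95, and a ratio of 1.59 (0.749 to 3.43). The second control peak, in intron 1 (chr2:155134310-155134588, 19 fragments, fold 3.95), had no overlapping RA peak. The second RA peak (chr2:155079613-155079864, 12 fragments, fold 4.11) lay 53617 bp outside Itch, and its annotation also named a, Ahcy and 2310005A03Rik. It was the only BATF site of the 10 genes in the RA list alone.

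The RNA-binding repressors Rc3h1, which encodes Roquin-1, and Zc3h12a, which encodes the RNase Regnase-1, both had strong promoter peaks. Rc3h1 had 1 BATF peak in each list and the same element in both, covering the first exon at chr1:160905716-160907546. Its pileup was 45 and 36 fragments, its fold 9.09 and 9.54, and the ratio 1.13 (0.706 to 1.78). Zc3h12a had its strongest peak over a CpG island at its promoter, 9.23 kb from the low-coordinate end (chr4:125127185-125128098), with 58 and 30 fragments, fold 14.6 and 9.30 and a ratio of 0.728 (0.452 to 1.15). Of its 4 control sites, 3 were also in the RA list, and the fourth, in intron 2 (chr4:125124628-125125456), was not.

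The diacylglycerol kinase genes moved in opposite directions by peak number, and for Dgka the number did not follow the bound length. Dgka had 1 control peak, 5731 bp long, over its promoter (chr10:128741155-128746885), and 4 RA peaks that lay at positions covered by that peak and spanned 2750 bp in all. The highest pileup was 42 fragments in the control and 27 with RA, a ratio of 0.905 (0.536 to 1.50). The IgG library was also raised here, at 4.19 times its genome-wide floor under the control peak, the highest of the 38. Counted as 1 site, the Dgka element was in both lists. Dgkz had 4 control peaks and 1 RA peak. The element in both lists, over a promoter and the first intron (chr2:91961479-91963911), had 43 and 20 fragments, fold 7.24 and 5.41, and a ratio of 0.654 (0.365 to 1.14). The 3 control peaks without an overlapping RA peak had 23, 20 and 17 fragments.

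Of the phosphatase genes, Ptpn2, which encodes TC-PTP and dampens JAK-STAT and T cell receptor signalling, had the strongest BATF control peak of the 10 genes. The site in intron 2 (chr18:67699268-67700036), 34.2 kb from the low-coordinate end, had 79 and 58 fragments, a scaled pileup of 3.42 and 3.53, fold 20.1 and 19.4, and a ratio of 1.03 (0.723 to 1.47). The promoter site (chr18:67723487-67725232) had 52 and 27 fragments and a ratio of 0.731 (0.441 to 1.18). Both Ptpn2 sites were thus found in both lists, and both intervals held 1.

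Ptpn22, whose product PEP acts on the kinases LCK and ZAP70, had 8 control peaks and 3 RA peaks. At least 8 BATF control peaks were found at 2 of the 10 genes, Cblb and Ptpn22, against 1.29% of all genes, and at least 2 at 8 of the 10, against 23.9%. The midpoints of the Ptpn22 control peaks lay within 16.3 kb of the low-coordinate end, apart from 1 over a simple repeat at 31.0 kb. The broad promoter peak (chr3:103857014-103861348, 4335 bp) held 2 separate RA peaks, with a highest pileup of 71 and 35 fragments and a ratio of 0.694 (0.449 to 1.05). The intron 3 site at chr3:103872560-103873225 had 42 and 17 fragments, fold 8.50 and 5.95, and the lowest ratio of the 20 sites found in both lists, 0.570 (0.304 to 1.02). The 6 other control peaks had no overlapping RA peak.

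Rasa2, a GTPase-activating protein that returns Ras to its inactive form, had the same 2 BATF sites in both lists. The promoter site (chr9:96630381-96631859) had 48 and 26 fragments, fold 9.53 and 6.75, and a ratio of 0.762 (0.454 to 1.25). The intron 5 site (chr9:96583025-96583870) had 29 and 22 fragments and a ratio of 1.07 (0.584 to 1.92). Ubash3a, an adaptor protein that suppresses T cell receptor signalling, had 5 peaks in each list, on 4 elements in the control and 3 with RA. Its strongest element, in intron 6 (chr17:31222976-31224901), had 40 and 34 fragments, fold 8.10 and 9.13, and a ratio of 1.20 (0.734 to 1.94). The element across its start and first intron (chr17:31207353-31210410) was 1 peak in the control and 3 with RA, with a ratio of 0.774 (0.438 to 1.33).

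Over all 10 genes, fewer BATF peaks were assigned with RA at 4 genes (Cblb, Zc3h12a, Dgkz and Ptpn22), equal numbers at 5 and more at Dgka. The Dgka peaks with RA all lay at positions covered by its control peak, and counted as 1 site in both lists. Of all genes with a BATF peak in either list, 54.3% had fewer with RA, 39% equal numbers and 6.77% more. The RA pool was also the shallowest, so that a weak site was harder to call in it. Overlapping peaks of both lists were joined into sites, which does not correct for depth. This gave 38 sites, of which 20 were in both lists, 17 in the control alone and 1 in the RA list alone. The 52.6% in both (37.3 to 67.5) was close to the 52.2% over all 16411 BATF sites. At all 10 genes the control peak of highest fold overlapped an RA peak. All 7 sites with a control fold of at least 8 were in both lists. No share over all genes or all sites was set beside these counts, so they are not read as a trait of the 10 genes. The sites in the control alone had a median control fold of 4.35, against 6.66 for the sites in both, and over the lists the values were 4.52 and 6.74.

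At the 20 sites in both lists the ratio of scaled pileup had a median of 0.838, with 13 values below 1 (65.0%, against 76.9% of all sites in both lists) and 7 above. Over all 8571 such sites the median was 0.844 and the quartiles 0.721 and 0.987, so that the median of the 20 was close to that of all. The interval lay above 1 at 1 of the 20, the Cblb intron 3 site, against 0.257% of all sites in both lists, and below 1 at 0 of the 20, against 7.39%. The Cblb ratio was at the 99.6th percentile, with 34 sites at or above it. Of the 956 sites with at least as many control fragments, it was the only 1 with so high a ratio. Both limits were set at this site's own values, the ratio being the highest of the 20, so this count is not a test. By fold enrichment, taken as the highest among a site's peaks in each list, 11 of the 20 were lower with RA (55.0%, 34.2 to 74.2), against 75.1% of all sites. That interval treats the sites as independent, although several come from the same gene, and the difference from all sites was not tested.

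**Figure D3:**
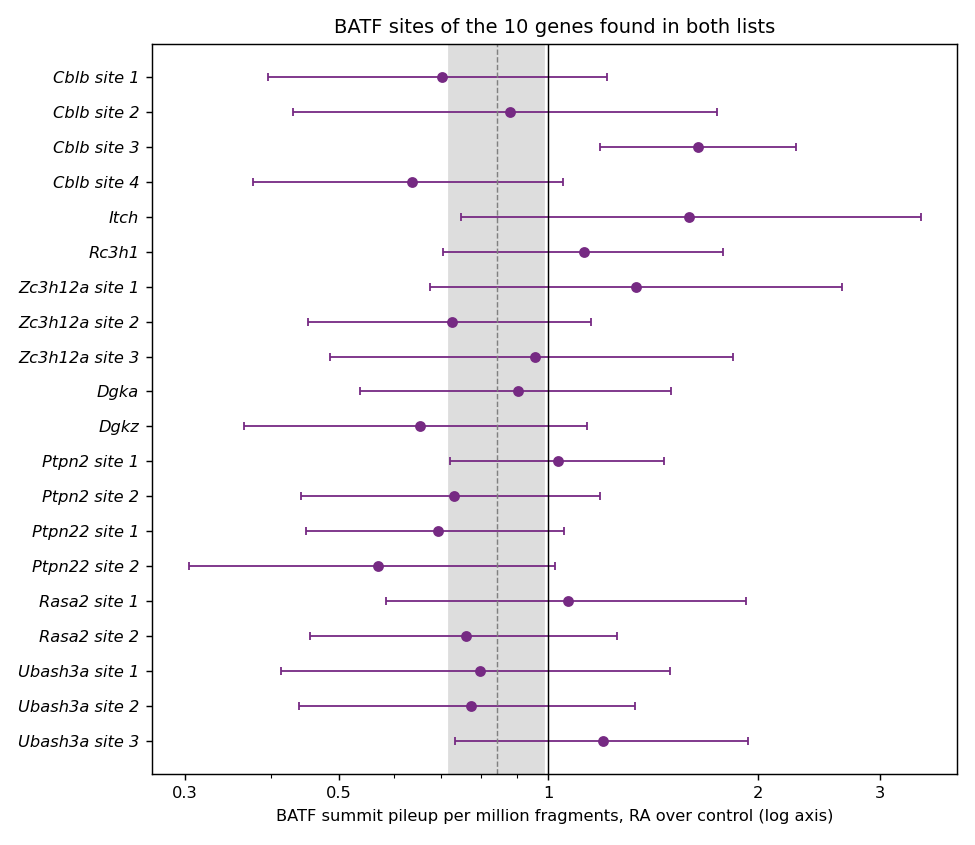
Ratio of scaled BATF pileup, RA over control (log axis), at the 20 sites found in both lists, with exact 95% intervals that cover counting error only and sites numbered by position within a gene. The grey band and dashed line give the quartiles (0.721 to 0.987) and median (0.844) of all 8571 sites, and only the interval of Cblb site 3 (1.18 to 2.27) does not hold 1.

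Counted as peaks within 5 kb of each other, 32 of the 38 control peaks had an RA peak nearby (84.2%, 69.6 to 92.6), against 69.9% of the list, and 21 overlapped one, against 54.4%. All 27 RA peaks had a control peak within 5 kb, against 96.3%. The share with overlap was near that of the list. The 32 pairs shared 20 RA peaks, since several control peaks lay beside the same RA peak, and RA had the lower fold in 16 pairs and the higher in 16, against 66.9% lower over all pairs.

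The 17 control peaks without an overlapping RA peak were at Cblb (5), Itch (1), Zc3h12a (1), Dgkz (3), Ptpn22 (6) and Ubash3a (1), and Rc3h1, Dgka, Ptpn2 and Rasa2 had none. Whether such a peak could have been called in the shallower pool was computed from its pileup at the RA depth and the pileup that the Poisson rule of the peak caller needed at the scaled IgG level. The pileup at the RA depth reached the needed one at 15 of the 17 (87.5% over the list), yet only at 1 was the lower bound of its interval as high as needed, against 24.5% over the list. That peak was in intron 3 of Ptpn22 (chr3:103867666-103868579). It had 41 fragments and a fold of 7.47 in the control, 29.1 (20.9 to 39.5) would have been found at the RA depth with an unchanged level, and 13 were needed. Taken from the point value of 29.1, the absence of a call there puts the RA pileup at no more than 0.412 of the control value. That figure leaves out the counting error of both pools. It had an RA peak within 5 kb, although none overlapped it. For the 16 others the intervals reach below the needed pileup, so that their loss was not distinguishable from counting error at this depth.

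**Figure D4:**
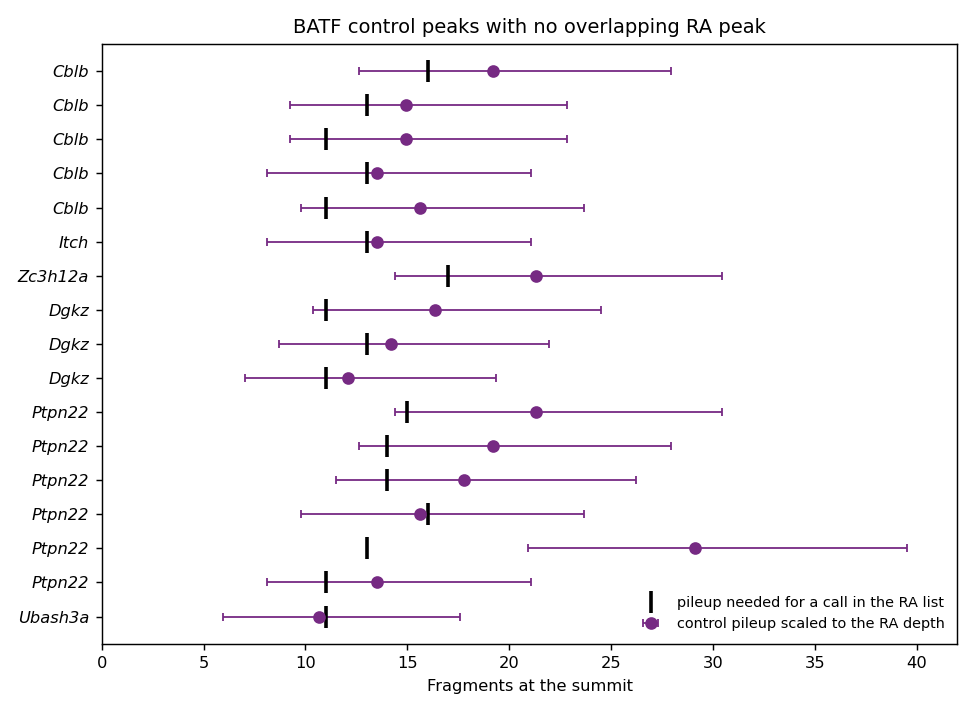
Pileup in fragments at the 17 BATF control peaks with no overlapping RA peak, scaled to the depth of the RA pool (points, with exact Poisson 95% intervals), and the pileup needed for a call there (black ticks). The 1 interval wholly above its tick is that of the Ptpn22 intron 3 peak, at 20.9 to 39.5 against 13.

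By the 5 kb distance, 6 of the 38 control peaks had no RA peak nearby, and these were 3 at Cblb, 1 at Dgkz and 2 at Ptpn22. The 3 of highest fold were a promoter-class peak of Dgkz (chr2:91950139-91950707, 23 fragments, fold 6.14) and a pair in introns of Cblb, in intron 9 (chr16:52143113-52143561, 22 fragments, fold 5.88) and intron 3 (chr16:52086483-52087600, 21 fragments, fold 5.63). The strongest site of Dgkz had a fold of 7.24 and that of Cblb 17.4.

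RARα was found at 6 positions of 3 genes, at pileups of 11 to 16 fragments. The promoter peaks of Ptpn2 (control) and of Itch (control and RA) did not reach a q of at most 0.05. In the control list Cblb had 1 peak, in intron 3 (chr16:52061063-52061534, 15 fragments, fold 4.02), which overlapped the BATF site there in both conditions and lay 33772 bp from the strongest BATF site of the gene. Ptpn2 had a peak in intron 2 (chr18:67699444-67699852, 14 fragments, fold 3.86) that lay on its strongest BATF site, and a weaker promoter peak (chr18:67723959-67724248, 11 fragments, fold 2.41) on its other BATF site. RARα control peaks at Ptpn2 thus lay on both of its BATF elements, but the promoter peak was at the limit of a call. Its -log10 p was 3.07 at a p cutoff of 0.001, and its fold ranked 1101st of the 1172 in the list.

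Itch had a RARα control peak at its promoter (chr2:155134929-155135303, 12 fragments, fold 3.35), annotated as a SINE repeat and 341 bp away from BATF in the control. With RA a RARα peak was called 13 bp beyond it (chr2:155135316-155135626, 11 fragments, fold 3.03), the only RARα peak of the 10 genes in that list. The second Itch control peak (chr2:155079351-155079648, 16 fragments, fold 4.38) was intergenic, 53833 bp from the gene, and annotated as a simple repeat. It lay 4652 bp from a BATF control peak and overlapped the BATF peak that was called with RA alone. Both RARα and BATF calls at this distant position rest on 12 to 16 fragments.

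All 5 RARα control peaks had a BATF control peak within 5 kb, against 61.9% of the RARα control list, and 3 overlapped one, against 53.4%. Of the 5, 1 had a RARα peak with RA within 5 kb, against 10.2%, and none had an overlapping one, against 8.45%. The pools were of nearly equal depth. Scaled to the RA pool, 4 of the 5 pileups reached the one needed for a call, against 88.9% of the control peaks of the list with no overlapping RA peak, and the Ptpn2 promoter peak did not, with 10.9 against 11. The distant Itch peak, at 15.9 (9.07 to 25.8) against 9, was the only 1 of the 5 whose lower bound was as high as needed. The Cblb intron peak, at 14.9 (8.33 to 24.5) against 9, and the Ptpn2 intron peak, at 13.9 (7.59 to 23.3) against 9, came near it. These bounds cover counting error of the control pool only, and 9.07 was barely above 9. At pileups this low, loss of RARα with RA at these peaks, the distant Itch peak included, was not taken as distinguishable from counting error.

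The same classes of brake hold 43 other genes that were described by counts. BATF control peaks were assigned to 36 of the 43 (83.7%, against 49.2% of all genes) with 148 peaks in all, and BATF peaks with RA to 33 (against 38.7%) with 80. All genes means all protein-coding genes, without regard to expression in T cells. The lengths of the 43 were not compared with theirs, and the differences were not tested. Of the 36, 32 also had a BATF peak with RA, against 76.5% of all genes with a BATF control peak. Of the 37 genes with a BATF peak in either list, the number was lower with RA at 26, equal at 8 and higher at 3, beside the 54.3%, 39% and 6.77% of all genes given above. By class, BATF control peaks were at 4 of 7 ubiquitin ligases and their adaptors, 5 of 6 RNA-binding repressors, 4 of 5 diacylglycerol kinases, 8 of 8 phosphatases, 5 of 7 Ras brakes and 10 of 10 adaptors and kinases.

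RARα control peaks were assigned to 9 of these 43 genes (20.9%, against 7.27% of all genes), with 10 peaks, and all 10 overlapped a BATF control peak, against 53.4% of the RARα control list. Here too gene length was not compared, and the differences were not tested. The highest fold was at Inpp5d, which encodes the lipid phosphatase SHIP1, in an intron (chr1:87637163-87637991) with 28 fragments and a fold of 7.47. Sla, encoding the adaptor SLAP, had 29 fragments and a fold of 6.03, and Rasa3, another GTPase-activating protein for Ras, had an intron peak of 44 fragments and a fold of 5.61. The other 6 genes were Peli1, Zc3h12d, Zfp36l2, Dgkd, Ptpn6 and Cish, at folds of 2.10 (Zfp36l2) to 4.21 (Cish). With RA a RARα peak was assigned to 3 of the 43, against 3.23% of all genes, namely Inpp5d (12 fragments, fold 3.29), Sla (25 fragments, fold 5.26) and Dgkq (12 fragments, fold 3.29). The Sla and Inpp5d peaks overlapped their RARα control peaks, and the Dgkq peak was 65678 bp from its gene.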

How the data were processed

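ChIP-seq for RARα and BATF was analysed from the 4 deposited peak lists. Per the submitters' processing notes and file headers, the authors used Bowtie2, MACS 2.2.7.1 and HOMER on mm10. The deposited pileup is a signal in fragments at the summit, which MACS had scaled in the BATF control list, and fragment numbers were recovered there. The deposited fold enrichment is a ratio over the local IgG level. The deposited p-value and q-value are on a -log10 scale. The headers state that no q-values were calculated although the column holds values, used only as an alternative. The authors' class can differ from the detailed annotation.

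Gene positions came from a RefSeq table for GRCm38.p6, without strand, and no sequence was analysed. Shares carry Wilson intervals, fragment counts exact Poisson intervals and ratios exact conditional intervals. Peak overlap was tested on simulated lists. The software was scipy 1.17.1, pandas 2.3.3, numpy 2.4.6 and matplotlib 3.10.9 under Python 3.11.15. The 10 genes and the 43 others were chosen with earlier results of these data known. Named in full were all RARα peaks, the strongest BATF control peak of each gene, peaks of fold 10 or more, and the 3 strongest BATF control peaks with no RA peak within 5 kb. The remaining sites named were added after their values were seen. Alternatives varied the q-value, p-value and fold thresholds, the distance to the gene, shared annotation, overlap distance and the fold scale.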

Additional observations from a re-analysis of the deposited data

How the results depend on the processing

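Of 44 recomputed values, 32 stayed close and 12 moved. The RARα control count of 5 peaks became 3 at a q of at most 0.05, 3 at a p of at most 1e-05 and 0 at a fold of at least 5, and the RARα count with RA of 1 became 0 under each of these. BATF counts of 38 and 27 became 23 and 17 at a fold of at least 5, and 74 and 55 when every peak within 100 kb of a gene was counted whatever gene it was assigned to. The share of BATF control peaks with an RA peak nearby, 84.2% within 5 kb, was 63.2% within 1 kb and 55.3% with overlap. The settings that moved the counts keep fewer or more peaks by construction. Those that moved the share keep the same 38 control peaks and shorten the distance allowed. Counts were lower with RA under every setting, except for RARα at a fold of at least 5, where both were 0. The share of RARα peaks near BATF at that fold could not be computed, since no RARα peak was left. Joining overlapping peaks into sites was chosen after seeing the data and gave BATF counts of 37 and 21. No paired analysis was possible because each condition has 1 pooled list and no test was run. The precision is limited by depth, at 11 to 16 fragments for RARα and 12 to 85 for BATF.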
